A study of Arabidopsis thaliana with 27 samples.

Results

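The genes described here are the 10 genes of the Arabidopsis sulfate reduction route and of the sulfur deficiency response chosen by their role: APS1 (AT3G22890), APS3 (AT4G14680), APR1 (AT4G04610), APR2 (AT1G62180), APR3 (AT4G21990), SIR (AT5G04590), LSU1 (AT3G49580), LSU2 (AT5G24660), SDI1 (AT5G48850) and GGCT2;1 (AT5G26220). All 10 were found on the array by locus, among 32627 loci, and each had 1 of the 37118 features, built from 3 or 4 probe pairs. Total RNA of Arabidopsis thaliana seedlings of the Col-0 ecotype was hybridised to 27 one-colour NimbleGen arrays. The arrays fell into 9 groups of 3 biological replicates, each a pool of several seedlings: gox2 control, gox2 Cd 30 min, gox2 Cd 24 h, 35S::GOX2 control, 35S::GOX2 Cd 30 min, 35S::GOX2 Cd 24 h, WT control, WT Cd 30 min and WT Cd 24 h. Seedlings of the Cd groups were kept in 100 µM cadmium, and control seedlings in a solution without cadmium. The gox2 line is a mutant of GOX2, a glycolate oxidase of peroxisomes that releases hydrogen peroxide during photorespiration. The 35S::GOX2 line carries GOX2 under a viral promoter that is active in most plant cells. The label of the untreated mutant names the glycolate oxidase mutant without its gene number, and the labels give 30 min for the short exposure where the study's methods give another length. The condition labels of the 35S line name no gene, and GOX2 is taken from the study's description of that line. The tissue label reads leaves, whereas the protocols speak of seedlings.

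Plants take up sulfate and activate it with ATP sulfurylase, the enzyme made by the APS genes. The product, adenosine phosphosulfate, is reduced to sulfite by APS reductase, the enzyme of the APR genes and the step held to control most of the flux. Sulfite reductase, made by SIR, turns sulfite into sulfide, which is built into cysteine and from there into glutathione and phytochelatins, the peptides that bind cadmium. LSU1 and LSU2 encode small proteins named for their response to low sulfur, SDI1 encodes a repressor of aliphatic glucosinolate synthesis, and GGCT2;1 encodes a cyclotransferase that breaks glutathione down in the cytosol. Transcripts of these markers are known to accumulate when sulfur is short.

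The labels were first checked against the arrays themselves. GOX2 was at a mean of 9.68 to 10.30 on the log2 intensity scale on the arrays labelled 35S::GOX2 control, gox2 Cd 30 min and WT Cd 30 min, and at 13.67 to 14.21 in the other 6 groups. Without Cd, GOX2 was called lower on the arrays labelled 35S::GOX2 (9.68, against 13.73 for WT) and higher on those labelled gox2 (14.13, against 13.73), which goes against both line names. At 24 h of Cd, GOX2 was called higher on arrays labelled 35S::GOX2 than WT (14.21, against 13.67), as the name of the line says. It was also called higher at 30 min (13.88, against 10.30), but there the WT arrays were low. GOX2 was called lower on WT Cd 30 min than on WT control arrays (10.30, against 13.73). The 35S::GOX2 Cd 30 min arrays thus stood near the WT control level. The arrays labelled gox2 did not pass against WT with Cd, at 9.94 against 10.30 at 30 min and at 13.89 against 13.67 at 24 h. For that reason groups are called below by their labels, as the arrays labelled so. When each array was matched to its closest array over all features outside the listed genes, 8 of the 27 arrays were closest to an array of another label. In 5 groups all arrays were closest to their own label (WT control, WT Cd 30 min, WT Cd 24 h, gox2 Cd 30 min and 35S::GOX2 control), and the 12 arrays of the other 4 groups were mixed among each other. Leaf markers were bright, with RBCS1A at the 99.99th percentile of features, but the root markers CASP1, PRP3 and ESB1 also lay at the 88.7th to 94th percentile, so RNA of roots was present. By the number shared in the array names the arrays came from 3 slides, and WT control, WT Cd 24 h, gox2 Cd 30 min and 35S::GOX2 control shared slide 1.

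Levels on all arrays fell into a steady and a variable class. SIR and APS1 hardly moved: the highest and lowest of the 27 arrays differed 1.21-fold for SIR and 1.36-fold for APS1. The APR genes and APS3 spanned 1.52-fold (APR2), 1.81-fold (APR3), 2.12-fold (APS3) and 2.28-fold (APR1). The deficiency markers spanned far more, 5.25-fold for GGCT2;1, 6.33-fold for SDI1, 6.55-fold for LSU2 and 6.88-fold for LSU1. The arrays labelled 35S::GOX2 control had the highest group mean of 8 of the 10 genes, with LSU1 highest on the arrays labelled 35S::GOX2 Cd 30 min and SIR on those labelled gox2 Cd 30 min. The lowest group mean lay on the arrays labelled 35S::GOX2 Cd 24 h for APS1, APS3, APR1, APR2, SDI1 and GGCT2;1, on those labelled WT Cd 30 min for APR3, LSU1 and LSU2, and on those labelled 35S::GOX2 Cd 30 min for SIR. Most neighbours in the order of the 9 groups overlapped. For LSU2 only 2 of the 8 steps did not: 35S::GOX2 control above 35S::GOX2 Cd 30 min, and WT control above WT Cd 30 min.

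**Figure D1:**
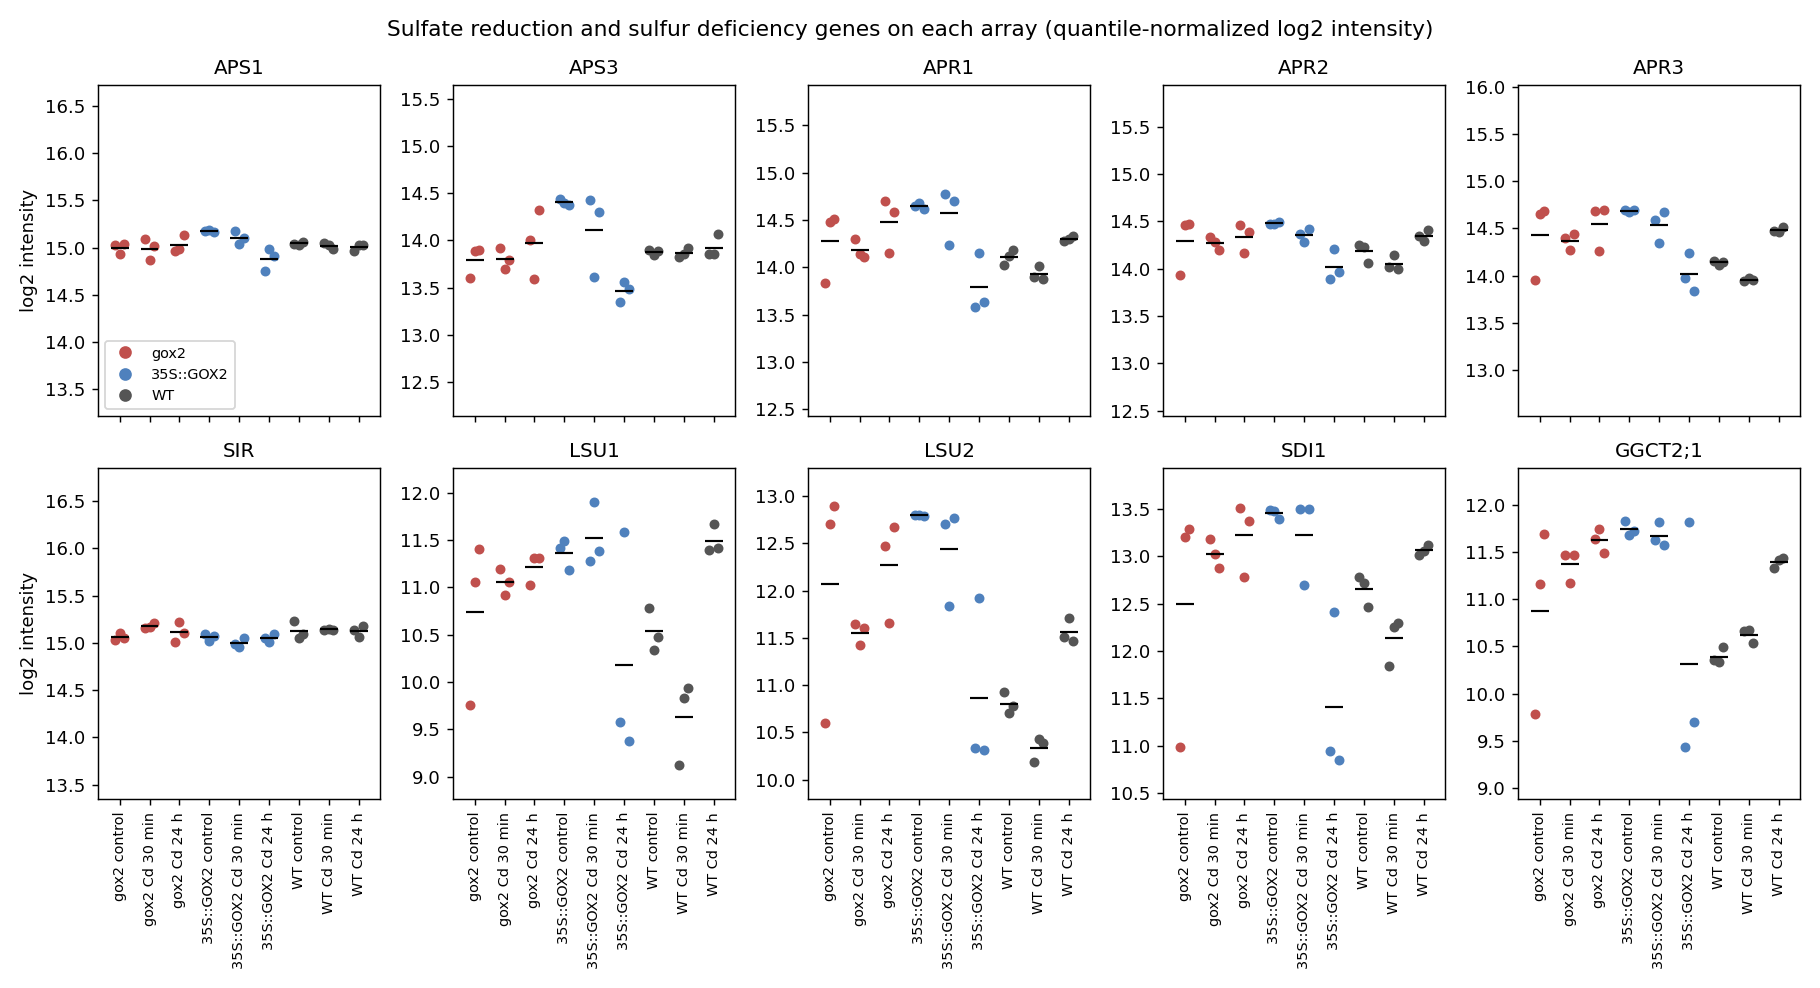
Quantile-normalized log2 intensity of each of the 10 genes (y axis, the same span in every panel) on the 3 arrays of each labelled group (x axis). Points are single arrays and lines are group means. The LSU, SDI1 and GGCT2;1 points spread over more than 2 log2 units, most of all in the groups labelled gox2 control and 35S::GOX2 Cd 24 h, while SIR and APS1 stay nearly level.

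The first comparison asked how WT seedlings responded to the long Cd exposure. On the arrays labelled WT Cd 24 h the sulfur deficiency markers and the APR genes lay above the control arrays, and APS1, APS3 and SIR overlapped with them. GGCT2;1 had a log2 intensity of 11.33, 11.41 and 11.43 on WT Cd 24 h arrays, against 10.36, 10.33 and 10.49 on WT control arrays. LSU1 stood at 11.40, 11.67 and 11.41 on WT Cd 24 h arrays and at 10.78, 10.34 and 10.48 on WT control arrays. LSU2 gave 11.51, 11.71 and 11.47 after 24 h of Cd, compared with 10.93, 10.71 and 10.78 in the WT control. All Cd arrays of these 3 markers exceeded all control arrays. SDI1 was also separated, by less, with 13.02, 13.06 and 13.12 on WT Cd 24 h arrays against 12.79, 12.72 and 12.46 on WT control arrays. Among the reductases, APR3 showed 14.47, 14.46 and 14.52 on WT Cd 24 h arrays and 14.16, 14.12 and 14.14 on WT control arrays. APR1 had 14.28, 14.29 and 14.33 on WT Cd 24 h arrays and 14.02, 14.12 and 14.18 on WT control arrays, and APR2 had 14.35, 14.29 and 14.41 against 14.26, 14.23 and 14.06. In all, 7 of the 10 genes did not overlap between the groups, all 7 higher with Cd, where 38.9% of all features did not overlap and 17.7% did so upwards.

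Whether these differences passed the test depended on which arrays set the spread. In the limma model over all 27 arrays, none of the 10 genes passed an adjusted p of 0.05, against 3.22% of all features. The fitted log2 fold changes there were 1.0 ± 0.42 (SE) for GGCT2;1 (adjusted p = 0.182), 0.96 ± 0.42 for LSU1 (adjusted p = 0.198) and 0.34 ± 0.15 for APR3 (adjusted p = 0.190). That model pools the spread of the 4 groups whose arrays were mixed. The other 5 groups were picked because their arrays lay closest to their own label in these same data. A smaller spread in them was thus partly fixed by the choice. The median SD within a group was 0.09 to 0.10 in these 5 groups, against 0.15 to 0.19 in the mixed 4. Adjusted p-values of the 15-array fit, here and below, carry that limit. In the limma fit to the 15 arrays of the other 5 groups, 6 of the 10 genes rose, against 23.1% of all features called and 10.3% called higher. GGCT2;1 rose 2.0-fold (adjusted p = 2.8e-06), LSU1 1.94-fold (adjusted p = 0.00251), LSU2 1.69-fold (adjusted p = 4.6e-05), SDI1 1.33-fold (adjusted p = 0.0270), APR3 1.27-fold (adjusted p = 0.000203) and APR1 1.15-fold (adjusted p = 0.0361). APR2 had a log2 fold change of 0.16 there (adjusted p = 0.0807), APS3 of 0.05, APS1 of -0.03 and SIR of 0.00. Both groups lay on slide 1, and the fit to the arrays of that slide alone also called 6 genes higher, against 22.7% of features called and 10.3% called higher. With the slide as a fixed block over all 27 arrays the count was 0, but that block changes only the spread here and not the estimates. Root markers moved between the same groups: 7 of the 10 were lower and 1 higher on WT Cd 24 h arrays in the 15-array fit, and the mean level of the root list ranged from -0.30 to -0.20 there, against 0.38 to 0.52 on WT control arrays (log2, each gene relative to its mean over all arrays). Of the 8 leaf markers 1 was lower, and the part of either in the result was not tested. Here and below, fewer cells of a type and less RNA per cell cannot be told apart in bulk RNA.

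**Figure D2:**
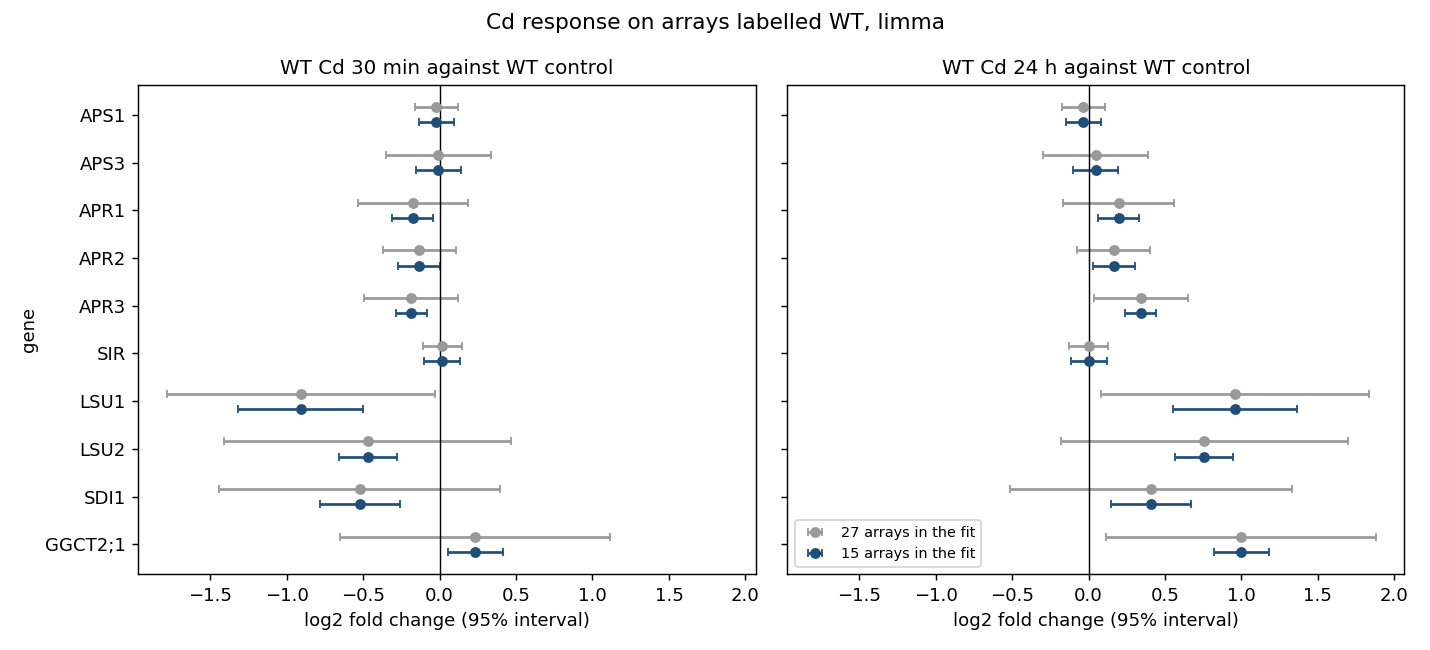
Log2 fold change of each gene (y axis) on arrays labelled WT Cd 30 min (left) and WT Cd 24 h (right) against WT control, with 95% intervals from limma. Grey marks the model over 27 arrays and blue the fit to 15 arrays. The estimates are the same and the blue intervals are narrower: at 24 h they lie above 0 for the APR genes and the 4 deficiency markers, and at 30 min the LSU1, LSU2 and SDI1 intervals lie below 0.

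On the arrays labelled WT Cd 30 min most of the same genes lay on the other side of the control. LSU1 had 9.12, 9.83 and 9.93 on WT Cd 30 min arrays against 10.78, 10.34 and 10.48 on WT control arrays, with no overlap. LSU2 showed 10.19, 10.43 and 10.39 on WT Cd 30 min arrays and 10.93, 10.71 and 10.78 on WT control arrays. SDI1 stood at 11.84, 12.26 and 12.30 after 30 min of Cd, against 12.79, 12.72 and 12.46 in the WT control. These 3 markers, APR1 and APR3 were below the control on every array, and GGCT2;1 was above it, at 10.66, 10.67 and 10.54 on WT Cd 30 min arrays against 10.36, 10.33 and 10.49 on WT control arrays. Non-overlap was thus seen for 6 of the 10 genes, where 42.4% of all features did not overlap (24.6% lower and 17.8% higher). In the 27-array model 0 of the 10 genes passed, against 15% of features. In the 15-array fit 5 fell, against 29.1% of features called and 16.4% called lower. LSU1 fell by 0.91 on the log2 scale (adjusted p = 0.00424), SDI1 by 0.52 (adjusted p = 0.00759), LSU2 by 0.47 (adjusted p = 0.00248), APR3 by 0.19 (adjusted p = 0.0123) and APR1 by 0.18 (adjusted p = 0.0492). GGCT2;1, with a log2 fold change of 0.23, missed the threshold (adjusted p = 0.0517). The same fit called 3 of the 10 root markers lower and 1 of the 8 leaf markers higher, with the root list at 0.26 to 0.36 on WT Cd 30 min arrays against 0.38 to 0.52 on WT control arrays, and their part in the result was not tested. The WT Cd 30 min arrays were on slide 2 and the control arrays on slide 1, so that slide and exposure cannot be told apart here. GOX2 was also called lower on the WT Cd 30 min arrays, at 10.30 against 13.73 on WT control arrays. That level was near the 9.94 of the arrays labelled gox2 Cd 30 min. An exposure and a difference of line behind the labels cannot be told apart either.

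The second question was how the lines differed from WT without Cd. On the arrays labelled 35S::GOX2 control, LSU2 and GGCT2;1 were far above the WT control, and the APR genes and APS3 were moderately higher. LSU2 had 12.80, 12.80 and 12.79 on 35S::GOX2 control arrays against 10.93, 10.71 and 10.78 on WT control arrays, a 3.97-fold rise (log2 fold change 1.99 ± 0.45 (SE), limma adjusted p = 0.00183). GGCT2;1 stood at 11.83, 11.68 and 11.72 on 35S::GOX2 control arrays and at 10.36, 10.33 and 10.49 on WT control arrays, a 2.55-fold rise (adjusted p = 0.0164). Both were separated from WT by more than the range within either group. APR3 gave 14.70, 14.68 and 14.69 on 35S::GOX2 control arrays against 14.16, 14.12 and 14.14 on WT control arrays, and rose 1.46-fold (adjusted p = 0.00657). APR1 rose 1.46-fold (adjusted p = 0.0183), APS3 1.44-fold (adjusted p = 0.0168) and APR2 1.23-fold (adjusted p = 0.0483). These were the 6 of 10 genes that passed, against 38.3% of all features called and 16.2% called higher, so that many other genes differed too. Without overlap were 9 of the 10 genes, all higher, where 60.7% of all features did not overlap and 24.5% did so upwards. The sole gene that overlapped was SIR, with 15.10, 15.02 and 15.07 on 35S::GOX2 control arrays and 15.24, 15.05 and 15.09 on WT control arrays. Both groups lay on slide 1. With that slide alone, and also in the 15-array fit, 8 genes rose, LSU1 (log2 fold change 0.83) and SDI1 (0.80) being the others. On that slide 53.2% of features were called and 21.6% called higher, and in the 15-array fit 53.5% and 21.5%. With slide as a fixed block, or with the replicate block, 5 genes were called, APR2 being lost. Since both groups were on the same slide, the fixed slide block changes only the spread here and not the estimates. The call of APR2 was also lost without any one of the 6 arrays compared, and that of APR1 without WT control replicate 1 or 35S::GOX2 control replicate 2. Of the root markers 5 were lower in the 15-array fit on the arrays labelled 35S::GOX2 control, where the root list ranged from 0.25 to 0.36, against 0.38 to 0.52 on WT control arrays.

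In the gox2 control group, replicate 1 stood far below replicates 2 and 3 in the APR genes and the deficiency markers, and the comparison with WT control depended on that array. LSU2 had 10.60, 12.71 and 12.90 on gox2 control arrays against 10.93, 10.71 and 10.78 on WT control arrays. SDI1 had 10.98, 13.21 and 13.29 on gox2 control arrays and 12.79, 12.72 and 12.46 on WT control arrays. LSU1 stood at 9.75, 11.06 and 11.41 on gox2 control arrays, compared with 10.78, 10.34 and 10.48 in the WT control. In each of these, replicate 1 lay below WT and the other two above it. All 10 genes overlapped, where 44.7% of all features did not. LSU2 was the 1 gene called (log2 fold change 1.26 ± 0.45, limma adjusted p = 0.0431), against 26.9% of features called and 12.1% called higher. The log2 fold changes of the other 9 genes ran from -0.16 (SDI1) to 0.49 (GGCT2;1). Of the root markers 5 were lower and of the leaf markers 1 was higher in the same comparison, with the root list at -0.27 to -0.08 on gox2 control arrays against 0.38 to 0.52 on WT control arrays, and their part in the result was not tested. Without gox2 control replicate 1, 3 genes were called and the log2 fold change of LSU2 was 2.0. Without any other single array of the groups compared, or with slide as a random block, none was. The shares of all features above belong to the 27-array model, and none is given for these alternative fits. The gox2 control arrays were on slide 3 and the WT control arrays on slide 1, so that slide and line cannot be told apart.

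**Figure D3:**
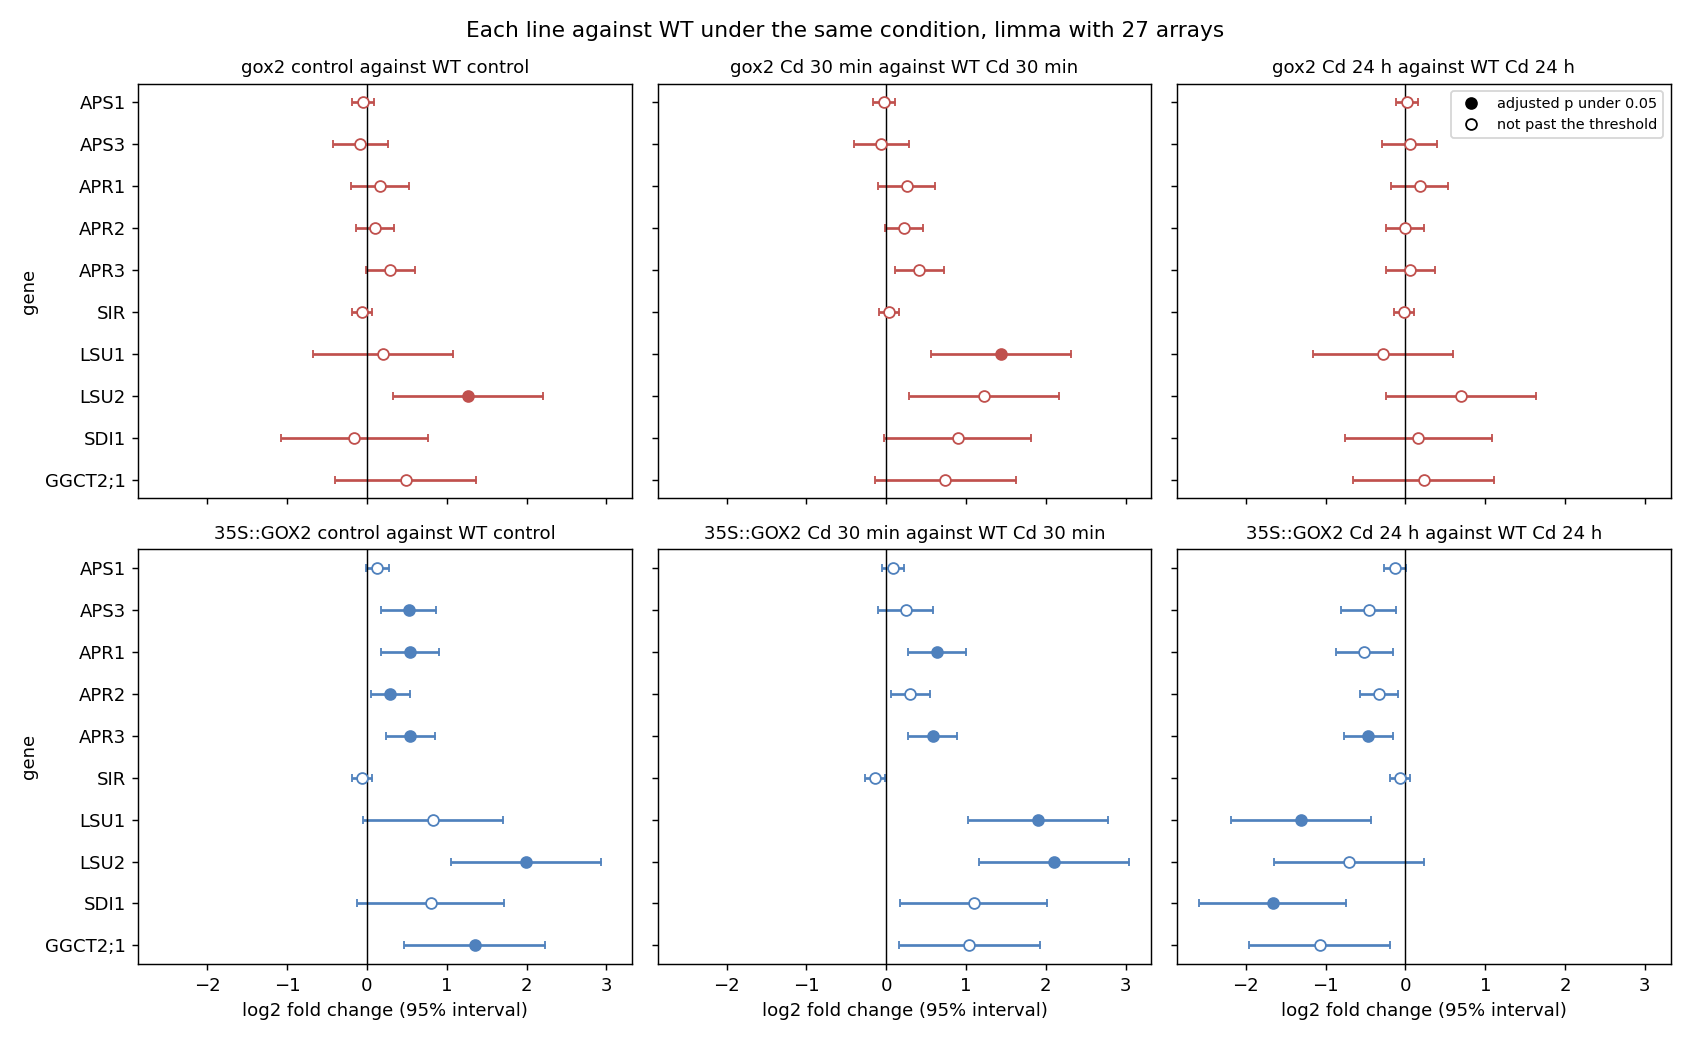
Log2 fold change of each gene (y axis) in arrays labelled gox2 (upper row) and 35S::GOX2 (lower row) against WT of the same condition, with 95% intervals from the limma model over 27 arrays. Filled points passed an adjusted p of 0.05. Filled points lie right of 0 for gox2 control and gox2 Cd 30 min (1 gene each), 35S::GOX2 control (6 genes) and 35S::GOX2 Cd 30 min (4 genes) and left of 0 for 35S::GOX2 Cd 24 h (3 genes).

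Against WT after 30 min of Cd, LSU1 was called higher in both lines and LSU2 in the arrays labelled 35S::GOX2. LSU1 had 11.20, 10.92 and 11.06 on gox2 Cd 30 min arrays and 11.28, 11.90 and 11.39 on 35S::GOX2 Cd 30 min arrays, against 9.12, 9.83 and 9.93 on WT Cd 30 min arrays. LSU2 showed 11.64, 11.42 and 11.61 on gox2 Cd 30 min arrays and 12.71, 11.83 and 12.77 on 35S::GOX2 Cd 30 min arrays, against 10.19, 10.43 and 10.39 on WT Cd 30 min arrays. No array of either line overlapped with WT in these genes. For gox2 Cd 30 min, 8 of the 10 genes were above WT without overlap (42.2% of all features did not overlap, 22.3% in that direction). LSU1 alone passed the limma test over 27 arrays there, 2.70-fold higher (adjusted p = 0.0426), against 7.67% of features called and 3.67% called higher. In the 15-array fit 7 genes rose, namely the APR genes, LSU1, LSU2, SDI1 and GGCT2;1, against 27.9% of features called and 14.4% called higher. LSU2 was 2.33-fold higher there (adjusted p = 1.3e-06) and GGCT2;1 1.67-fold (adjusted p = 4.9e-05), while APS1, APS3 and SIR stood at log2 fold changes of -0.03, -0.06 and 0.04. With 27 arrays LSU2 (adjusted p = 0.0939), SDI1 (adjusted p = 0.203) and GGCT2;1 (adjusted p = 0.276) did not pass. In the 15-array fit 5 of the 10 root markers were lower and 1 higher and 2 of the 8 leaf markers were lower, with the root list at -0.08 to -0.02 on gox2 Cd 30 min arrays against 0.26 to 0.36 on WT Cd 30 min arrays, and their part in the result was not tested. The call of LSU1 in the 27-array model was lost without any one of 5 of the 6 arrays compared, the exception being WT Cd 30 min replicate 3, and with slide as a random block. The groups lay on slides 1 and 2, and slide and line cannot be told apart.

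The arrays labelled 35S::GOX2 Cd 30 min had 4 genes called higher than WT Cd 30 min in limma, against 16.9% of features called and 8.11% called higher. LSU2 rose 4.29-fold (adjusted p = 0.00416), LSU1 3.73-fold (adjusted p = 0.00496), APR1 1.56-fold (adjusted p = 0.0159) and APR3 1.5-fold (adjusted p = 0.0111). Above WT on every array were 7 genes and below it 1, SIR, with 14.99, 14.96 and 15.05 on 35S::GOX2 Cd 30 min arrays against 15.14, 15.15 and 15.14 on WT Cd 30 min arrays (34.2% of features did not overlap, 16% higher and 18.2% lower). SIR did not pass the test (log2 fold change -0.14, adjusted p = 0.103), nor did SDI1 (1.10, adjusted p = 0.0929), GGCT2;1 (1.04, adjusted p = 0.0966), APR2 (0.30), APS3 (0.24) and APS1 (0.08). The 35S::GOX2 Cd 30 min arrays were on slide 3 and the WT Cd 30 min arrays on slide 2. A fixed block takes the difference of these slides from gox2 Cd 24 h alone, so that it cannot tell slide and line apart. With the slide as a block, fixed or random, none of the 10 genes passed. Without WT Cd 30 min replicate 1, or without 35S::GOX2 Cd 30 min replicate 3, 2 genes did. The replicate 2 array of the arrays labelled 35S::GOX2 Cd 30 min stood apart from its group in APS3, at 13.61 against 14.43 and 14.29, and in SDI1, at 12.70 against 13.50 and 13.50.

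After 24 h of Cd the arrays labelled gox2 overlapped with WT in most of these genes. LSU2 had 12.47, 11.65 and 12.67 on gox2 Cd 24 h arrays against 11.51, 11.71 and 11.47 on WT Cd 24 h arrays. GGCT2;1 had 11.64, 11.74 and 11.48 on gox2 Cd 24 h arrays and 11.33, 11.41 and 11.43 on WT Cd 24 h arrays, and was the 1 gene above WT on every array, while LSU1 was the 1 gene below it (20.9% of all features did not overlap, 10.6% higher and 10.2% lower). None of the 10 genes passed in limma, against 2.14% of features. The 95% interval of the log2 difference was -1.16 to 0.60 for LSU1, -0.24 to 1.64 for LSU2 and -0.18 to 0.54 for APR1. For the other genes the fitted log2 differences ran from -0.01 (SIR) to 0.23 (GGCT2;1). Each gox2 Cd 24 h array was closest to an array of another label. The gox2 Cd 24 h arrays were on slides 2 and 3 and the WT Cd 24 h arrays on slide 1, so that slide and line cannot be told apart.

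In the 35S::GOX2 Cd 24 h group, replicates 1 and 3 were the lowest or near the lowest of the series in most of these genes, and replicate 2 was not. SDI1 had 10.94, 12.42 and 10.85 on 35S::GOX2 Cd 24 h arrays against 13.02, 13.06 and 13.12 on WT Cd 24 h arrays. LSU1 had 9.58, 11.58 and 9.37 on 35S::GOX2 Cd 24 h arrays and 11.40, 11.67 and 11.41 on WT Cd 24 h arrays. APR3 stood at 13.98, 14.24 and 13.84 on 35S::GOX2 Cd 24 h arrays, against 14.47, 14.46 and 14.52 on WT Cd 24 h arrays. SDI1 and APR3 were below WT on all arrays, while replicate 2 of LSU1 lay within the WT range. These 3 genes were called lower in limma: SDI1 fell by 1.66 (adjusted p = 0.0160), LSU1 by 1.31 (adjusted p = 0.0407) and APR3 by 0.46 (adjusted p = 0.0395) on the log2 scale, against 14.6% of features called and 7.06% called lower. In 5 genes the 35S::GOX2 arrays were below WT without overlap, where 35.1% of all features did not overlap and 18% did so downwards. Without 35S::GOX2 Cd 24 h replicate 2, 6 genes were called lower, SDI1 fell by 2.17 and LSU1 by 2.02. Without 35S::GOX2 Cd 24 h replicate 1 or 3, without WT Cd 24 h replicate 3, or with slide as a random block, none was, and without WT Cd 24 h replicate 1 or 2, 1 was. Of the root markers 5 were also lower on the arrays labelled 35S::GOX2 Cd 24 h, where the root list ranged from -0.89 to -0.28, against -0.30 to -0.20 on WT Cd 24 h arrays, and their part in the result was not tested. The groups lay on slides 3 and 1.

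Within the lines, the Cd series were set against their own controls. In the arrays labelled gox2, none of the 10 genes passed at 30 min, against 27.7% of all features, and none at 24 h, against 0.0135% of features (5 features; 4810 features had an unadjusted p under 0.05 in limma, and Student's test with adjustment called 1). At 24 h all 10 genes overlapped with the control (10.8% of features did not), and at 30 min only SIR did not overlap, being higher (44.9% of features did not overlap, 24% of all being higher). The 95% interval of the 24 h log2 fold change of SDI1 ran from -0.19 to 1.65, and that of GGCT2;1 from -0.14 to 1.63. In the arrays labelled 35S::GOX2, none passed at 30 min, against 23% of features, and APR2 and LSU2 were below the control without overlap (42.2% of features did not overlap, 18% of all being lower). There the log2 fold changes ran from -0.36 (LSU2) to 0.16 (LSU1), and on the arrays labelled gox2 from -0.51 (LSU2) to 0.53 (SDI1) at 30 min and from 0.03 (APS1) to 0.74 (GGCT2;1) at 24 h. The gox2 control arrays were on slide 3, those of gox2 Cd 30 min on slide 1 and those of gox2 Cd 24 h on slides 2 and 3. The 35S::GOX2 control arrays were on slide 1 and those of 35S::GOX2 Cd 30 min on slide 3.

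At 24 h the arrays labelled 35S::GOX2 had 9 of the 10 genes lower than in their control, all but SIR, where 43.9% of all features were called and 20.2% were called lower. SDI1 had 10.94, 12.42 and 10.85 on 35S::GOX2 Cd 24 h arrays against 13.49, 13.49 and 13.40 on 35S::GOX2 control arrays, and fell by 2.05 on the log2 scale (limma adjusted p = 0.00109). LSU2 had 10.34, 11.93 and 10.32 on 35S::GOX2 Cd 24 h arrays against 12.80, 12.80 and 12.79 on 35S::GOX2 control arrays, and fell by 1.94 (adjusted p = 0.00200). Every Cd array of these 2 genes lay below every control array. GGCT2;1 fell by 1.42 (adjusted p = 0.0105) and LSU1 by 1.18 (adjusted p = 0.0280), although replicate 2, at 11.81 and 11.58, lay with the control arrays, at 11.83, 11.68 and 11.72 for GGCT2;1 and at 11.42, 11.49 and 11.18 for LSU1. Without 35S::GOX2 Cd 24 h replicate 1 or 3 neither passed, and without 35S::GOX2 control replicate 1 or 2 LSU1 did not. Without 35S::GOX2 Cd 24 h replicate 2, GGCT2;1 fell by 2.17 and LSU1 by 1.89. Over 15 alternatives GGCT2;1 passed in 9 and LSU1 in 7. In sulfate activation and reduction, APS3 fell by 0.94, APR1 by 0.86, APR3 by 0.67, APR2 by 0.46 and APS1 by 0.29, each without overlap. Non-overlap was seen for 7 of the 10 genes, where 54.7% of all features did not overlap and 25.2% did so downwards. SIR had a log2 fold change of -0.01 (95% interval -0.13 to 0.12). With slide as a random block 7 of the 9 were called. The Cd arrays were on slide 3 and the control arrays on slide 1, so that slide and exposure cannot be told apart. In the same comparison 5 of the 10 root markers were lower. The root list ranged from -0.89 to -0.28 on Cd arrays against 0.25 to 0.36 on control arrays. GOX2 itself stood at 14.21 on these Cd arrays against 9.68 on the control arrays, and its part in the result was not tested.

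The difference of the 24 h responses was tested directly. Between the arrays labelled gox2 and those labelled WT, none of the 10 genes passed in limma, where 0.0162% of all features did, with 95% intervals of the log2 difference of -1.89 to 0.77 for LSU2 and -1.72 to 0.76 for LSU1. For the arrays labelled 35S::GOX2, the response was lower than that of WT for 9 of the 10 genes, all but SIR, where 27.5% of features were called and 12.7% called lower. The log2 difference of the responses was largest for LSU2, at -2.69 ± 0.64 (SE; adjusted p = 0.00515), followed by SDI1 (-2.46), GGCT2;1 (-2.42) and LSU1 (-2.14). It was -1.06 for APR1, -1.01 for APR3, -0.98 for APS3, -0.62 for APR2 and -0.26 for APS1. The APS1 difference was the least firm, with an adjusted p of 0.0468 and 5 of 19 alternatives in which it passed. These differences share the WT arrays and the 35S::GOX2 control arrays with the comparisons above. The 35S::GOX2 Cd 24 h arrays were on slide 3 and the other groups of that difference on slide 1. Slide and the difference of responses therefore cannot be told apart. GOX2 itself stood at 14.21 on 35S::GOX2 Cd 24 h arrays against 9.68 on their control arrays, and its part in the result was not tested.

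Because 8 of the 12 arrays of the mixed groups were closest to an array of another label, the genes were also read along the sets of 3 that these arrays formed with their closest arrays, without any of the listed genes. The other 4, replicates 1 and 3 of 35S::GOX2 Cd 30 min and of 35S::GOX2 Cd 24 h, were each closest to their own label. The arrays 35S::GOX2 Cd 24 h replicates 1 and 3 and gox2 control replicate 1 formed one set, in which LSU2 ranged from 10.32 to 10.60, SDI1 from 10.85 to 10.98 and GGCT2;1 from 9.44 to 9.78. A further set held gox2 Cd 24 h replicate 1 and gox2 control replicates 2 and 3, with LSU2 at 12.47 to 12.90, SDI1 at 13.21 to 13.51 and GGCT2;1 at 11.16 to 11.69. So the arrays of the label gox2 control were split between a low and a high set in these markers, and arrays of different labels lay close together. In the set of 35S::GOX2 Cd 30 min replicates 1 and 3 and gox2 Cd 24 h replicate 3, APS3 stood at 14.29 to 14.43, whereas in that of 35S::GOX2 Cd 24 h replicate 2, 35S::GOX2 Cd 30 min replicate 2 and gox2 Cd 24 h replicate 2 it stood at 13.56 to 13.61. In the same pair of sets LSU1 ranged from 11.28 to 11.39 and from 11.31 to 11.90, so that APS3 and LSU1 did not follow the same order. SIR stayed between 14.96 and 15.22 in all 4 sets. The sets are a description with no test, and what joins their arrays was not tested.

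**Figure D4:**
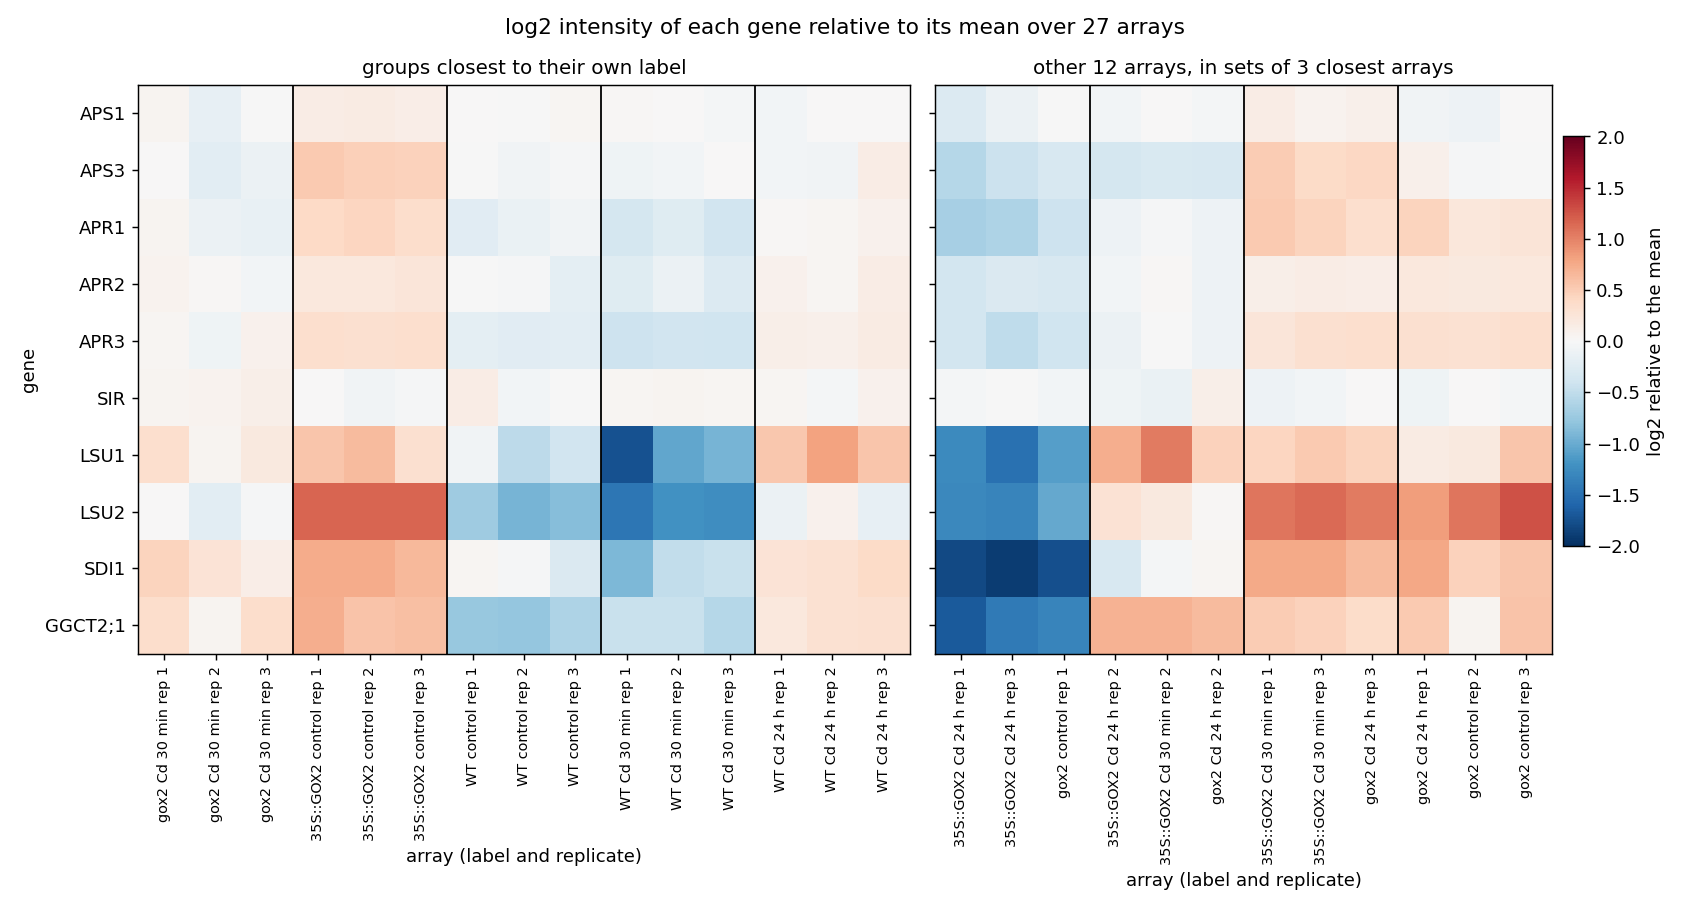
Log2 intensity of each gene (rows) relative to its mean over 27 arrays, for the 15 arrays of groups closest to their own label (left) and the other 12 arrays ordered by sets of 3 closest arrays (right). Columns are arrays by label and replicate, and blue is lower and red higher than the mean. The set with 35S::GOX2 Cd 24 h replicates 1 and 3 and gox2 control replicate 1 is blue for LSU1, LSU2, SDI1 and GGCT2;1, with SDI1 at 10.85 to 10.98.

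The genes moved together to different degrees. Over the 27 arrays, the Pearson correlation was 0.92 to 0.94 among the APR genes, 0.81 to 0.87 among LSU1, LSU2, SDI1 and GGCT2;1, and 0.83 between APS1 and APS3. LSU2 was nearer to APR3 (0.96) than to any other deficiency marker. SIR was unlike all of them, with correlations of -0.34 to -0.02. Among 10533 loci with an SD of at least 0.3, the profile of the 4 deficiency markers was most like that of LSU3, a paralogue of the same family (0.97), followed by AT5G18470, AT5G57010, WRKY53 and SHM7, all at 0.95 to 0.97. The mean APR profile was most like that of AT3G56200 (0.97), FH4, SHM7, AT4G11000 and ACS6. All arrays share the group and slide structure, and these values are given as a description.

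The rest of the pathway was read from lists of genes by role. Among 12 sulfate transporters, SULTR1;2, a high-affinity importer of roots, rose on the arrays labelled WT Cd 24 h (log2 fold change 0.88 ± 0.14, limma adjusted p = 0.00541), and in the 15-array fit SULTR1;1 (1.09), SULTR3;1 and SULTR3;2 rose too and SULTR3;5 fell. In the 35S::GOX2 control group, SULTR1;3 (1.32), SULTR1;2 (0.66) and the vacuolar exporter SULTR4;2 (0.56) were higher than in the WT control, where 16.2% of all features were called higher. The 15-array fit called 3 of the 12 higher and 4 lower there, where 53.5% of all features were called. On the gox2 control arrays 6 of the 12 were lower than in the WT control, led by SULTR1;1 (-1.07), where 14.8% of all features were called lower. On the arrays labelled 35S::GOX2 Cd 24 h, 8 of the 12 were lower than on WT Cd 24 h arrays, led by SULTR1;1 (-1.85) and SULTR3;1 (-0.94), where 7.06% of all features were called lower. In the model over all arrays, 5 of the 10 root markers were lower too on the gox2 control and on the 35S::GOX2 Cd 24 h arrays. That model called 1 root marker lower on WT Cd 24 h arrays and 0 on 35S::GOX2 control arrays. The 15-array fit called 7 lower and 1 higher on WT Cd 24 h arrays, and 5 lower on 35S::GOX2 control arrays. The part of the root markers in these results was not tested. In the gox2 Cd 30 min group, 3 of the 12 transporters were higher than on WT Cd 30 min arrays, where 3.67% of all features were called higher. These were SULTR1;1 by 1.25, SULTR1;2 by 1.0 and SULTR3;2 by 0.82.

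Among 15 other genes of sulfate activation and the deficiency response, LSU3 (1.22) and BGLU30 (3.88), a beta-glucosidase, rose on the arrays labelled WT Cd 24 h in the 27-array model. The 15-array fit called 7 higher and 1 lower in that comparison, against 10.3% of all features called higher and 12.8% called lower. The lower was APK2, a kinase that draws adenosine phosphosulfate away from reduction (-0.44). LSU4 (1.7), LSU3 (1.42), SHM7 (0.60) and APK1 (0.29) were higher on the arrays labelled 35S::GOX2 control than in the WT control. In the 24 h response, LSU3 (-2.70), LSU4 (-2.64), SDI2 (-0.85), BGLU28 (-3.16) and SHM7 (-1.17) were lower on the arrays labelled 35S::GOX2 than on those labelled WT, and APK4 (0.69) and GGCT2;2 (0.29) were higher.

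In cysteine, glutathione and phytochelatin synthesis, no gene of 12 was called on WT Cd 24 h arrays and 1 was higher, SERAT2;1 (0.24), in the 15-array fit. On the arrays labelled 35S::GOX2 Cd 24 h, 4 of the 12 were lower and 2 higher than in their control, where 43.9% of all features were called, with PCS2 (-1.0), SERAT3;2 (-0.83), PCS1 (-0.77) and OASC (-0.39) lower. PCS1 (0.41) and PCS2 (1.07), the phytochelatin synthases, were higher on the arrays labelled 35S::GOX2 control than in the WT control, and SERAT1;1 was lower (-0.24). Of 17 glucosinolate genes, CYP79F2, which acts early in the aliphatic branch, was lower on WT Cd 24 h arrays (-1.07, adjusted p = 0.0460), and the 15-array fit called 10 lower and 1 higher, where 23.1% of all features were called and 12.8% called lower. The same fit had 7 of the 10 root markers lower, and their part in the result was not tested. The genes lowest there were CYP79F1 (-1.46), MYB29 (-1.31), CYP79F2 and MYB76 (-1.05), and MYB51, a regulator of the indolic branch, was higher (0.21). The median log2 fold change on WT Cd 24 h arrays over all features was -0.01, against 0.27 over the 10 genes, 0.15 over the transporters, 0.17 over the other deficiency genes, -0.02 over cysteine and glutathione synthesis and -0.29 over the glucosinolate genes.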

How the data were processed

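The deposited values were RMA intensity values on a linear scale, 1 file per NimbleGen array, made by the authors from the probe pairs of each feature (RMA is a method of background correction, normalization and summary). The submitters' processing notes name limma, and versions are not given in the sources used here. The series table held the same values. Here log2 of the intensity was quantile-normalized between arrays, since array medians differed by more than 0.1, and limma 3.58.1 in R 4.3.3 fitted 9 group means to 27 arrays (two-sided, Benjamini-Hochberg over 37118 features, adjusted p under 0.05) for 12 comparisons and 2 differences of responses. Groups came from the labels. The number of arrays limits the precision. Alternatives were the fit to 15 arrays, slide and replicate blocks, Student's 2-group t-test per feature (named in the study's methods for its statistics in general, not for the arrays), filters and leaving out single arrays. All 10 genes entered every comparison and are given by value, count or range. Of other lists the rule named at most the 4 largest changes past the threshold, and further named genes were chosen after their values were seen. The genes and lists were chosen with earlier results of these data known. The limma script was tested on simulated data. Replicate numbers were not taken to pair the samples, since correlations of same-numbered arrays within the comparisons ran from -0.53 to 0.44, although the replicate 2 arrays of 35S::GOX2 Cd 30 min, 35S::GOX2 Cd 24 h and gox2 Cd 24 h lay close together (0.72 to 0.80).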

Additional observations from a re-analysis of the deposited data

Results flagged for a closer look

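In 9 of the 10 genes the change after 24 h of Cd differed between the arrays labelled 35S::GOX2 and those labelled WT. Limma's test of the difference of the responses called them, where 27.5% of all features were called and 12.7% called lower. The log2 difference was -2.69 for LSU2, -2.46 for SDI1, -2.42 for GGCT2;1, -2.14 for LSU1, -1.06 for APR1, -1.01 for APR3, -0.98 for APS3, -0.62 for APR2 and -0.26 for APS1. SIR was the exception, at -0.01. The arrays labelled 35S::GOX2 Cd 24 h include replicate 2, which was closer to arrays of other labels. They were on slide 3 and the other groups of this difference on slide 1, so that slide and response cannot be told apart. GOX2 itself stood at 14.21 on 35S::GOX2 Cd 24 h arrays and at 9.68 on their control arrays. On WT Cd 24 h and WT control arrays it stood at 13.67 and 13.73. Its part in the result was not tested.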

How the results depend on the processing

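No called value changed sign under any alternative, and counts below are numbers of the 10 genes called. Shares of all features are not given here for the arrays compared alone, the blocks, the filters and single arrays left out. Counts of the 10 genes in those settings therefore have no background to be set against. WT Cd 24 h against WT control had 0, but 6 on slide 1 alone, 5 with the arrays compared alone and 6 in the 15-array fit. Student's test called 6 without and 4 with adjustment there, against 11253 and 5183 of 37118 features. WT Cd 30 min against WT control had 0, but 2 with the arrays compared alone and 5 in the 15-array fit. In Student's test it had 6 without and 1 with adjustment, against 11444 and 284 features. For gox2 control against WT control (1), slide as a random block, the arrays compared alone and Student's test gave 0. Leaving out single arrays gave 0 to 3. Over all features Student's test called 12751 there without and 4286 with adjustment. 35S::GOX2 control against WT control (6) had 2 with a log2 fold change of at least 1. For gox2 Cd 30 min against WT Cd 30 min (1), slide as a random block gave 0 and leaving out single arrays 0 to 1. The arrays compared alone gave 5 and the 15-array fit 7. Student's test gave 7 without and 3 with adjustment, against 11778 and 4209 features. For 35S::GOX2 Cd 30 min against WT Cd 30 min (4), slide as a random or fixed block gave 0. A log2 fold change of at least 1 gave 2, and single arrays left out 2 to 5. Student's test gave 8 without and 0 with adjustment, against 8361 and 36 features. gox2 Cd 24 h against WT Cd 24 h (0) had 1 in Student's test without adjustment, against 3962 features. For 35S::GOX2 Cd 24 h against WT Cd 24 h (3), leaving out the dimmest 25% of features gave 5. Slide as a random block gave 0, the arrays compared alone 1 and single arrays left out 0 to 6. Student's test gave 5 without and 0 with adjustment, against 9437 and 1426 features. gox2 Cd 30 min against gox2 control (0) and 35S::GOX2 Cd 30 min against 35S::GOX2 control (0) each had 1 in Student's test without adjustment. Over all features that test called 13186 in the first and 10640 in the second. The first had 0 to 1 with single arrays left out. 35S::GOX2 Cd 24 h against 35S::GOX2 control (9) had 4 with a log2 fold change of at least 1. It had 5 in Student's test with adjustment, against 10485 features. The replicate block moved no count by over 1.5 times, leaving 5 of 6 in 35S::GOX2 control against WT control and 8 of 9 in the difference of the 24 h responses; 10 of 27 arrays correlated best with their own number, as a hint from the data. In fits to fewer arrays the spread is set by fewer samples. The 15 arrays were also picked for their closeness in these same data, which favours a small spread. Otherwise the cause was not tested.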
